A study of Equus caballus with 2 samples.

Results

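The genes described here encode the elastic fibre and its microfibril scaffold in cultured fibroblasts from the endometrium of mares. They were listed by symbol, with earlier results of these data known. The list holds elastin (*ELN*), the fibrillins *FBN1* and *FBN2* and the fibulins *FBLN1*, *FBLN2*, *FBLN5*, *EFEMP1* and *EFEMP2*. It also holds the microfibril protein *MFAP5* and the matrix protein *SVEP1*. Of these 10 symbols, 9 were found among the 21426 genes counted. *MFAP5* was not found under its symbol and was not analysed here.

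Fibroblasts of 4 mares were grown on hydrogels coated with collagen and then kept for 24 h in medium with 0.1% BSA in place of serum. The control group received nothing else. The TGF-β1 group received 10 ng/ml of the human recombinant protein. In each group the cells of the 4 mares, which had a healthy or mildly fibrotic endometrium, were pooled and made into 1 droplet library, so mares were not told apart here and there was no replicate of either group. The library of the TGF-β1 group is called the treated library below. The effect of treatment and that of the separate preparation of the libraries cannot be told apart. All differences below therefore describe these 2 libraries, no test was made, and intervals cover counting error only. The comparison addresses how TGF-β1, a profibrotic growth factor, changes the transcripts from which fibroblasts build elastic fibres.

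An elastic fibre has a core of cross-linked elastin and a sheath of microfibrils. Fibrillins polymerize into the microfibrils, fibulins bridge microfibrils and tropoelastin, and lysyl oxidases cross-link the deposited elastin. Microfibrils also hold latent TGF-β complexes in the matrix through fibrillins and latent TGF-β binding proteins. Fibroblasts are a main source of these proteins, and in endometrial fibrosis they lay down excess matrix around the glands.

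Transcripts were counted from their 3′ end as unique molecular identifiers (UMIs), so that each captured transcript counts once whatever its length, and levels are given as UMIs scaled to the total of the library (CPM) without division by gene length. A cell was kept if it had 20000 UMIs or more, 3500 detected genes or more and a mitochondrial share below 4%. This left 3865 control cells and 4513 treated cells with median depths of 50313 and 43142 UMIs. Only 2 cell barcodes were shared by the kept cells of both libraries. The fibroblast markers *COL1A1*, *COL1A2*, *COL3A1* and *VIM* were found in 100% of the cells of both libraries, and the fifth marker of that list, *PDGFRB*, in 75.2% of control and 59.0% of treated cells. *VIM* and *PDGFRB* were lower in the treated library, with log2 ratios of -0.97 and -0.71, and the collagens were higher. The muscle-type markers *ACTA2* and *DES* were also found in at least 97.0% of cells. The 4 muscle and pericyte markers summed to 4349 CPM in the control and 5400 CPM in the treated library, with *ACTA2* (0.39) and *RGS5* (0.24) higher and *DES* (-0.18) and *MYH11* (-0.76) lower on the log2 scale. Epithelial, endothelial and immune genes were mostly near 0, with *EPCAM* at 1 and 3 UMIs, *CDH5* at 3 and 2 UMIs and *PTPRC* at 1 and 0 UMIs in all. The exceptions were *CD68*, *CD14* and the keratins. The summed level of the 6 epithelial markers found was 134 CPM in the control and 12.3 CPM in the treated library, and 114 CPM of the control level was *KRT8*.

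Taken as a group, the 9 genes held almost the same share of all UMIs in both libraries, but their composition differed. Their summed level was 1820 CPM in control and 1811 CPM in treated cells, so that the ratio of treated over control was -0.0069 on the log2 scale (95% counting interval -0.013 to -0.00054). Within that sum, the fibrillins held 40.5% in the control and 54.3% in the treated library. The long fibulins *FBLN1* and *FBLN2* went from 37.0% to 31.1%. The short fibulins *EFEMP1*, *EFEMP2* and *FBLN5* went from 20.5% to 13.8%.

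Of the 9 genes, 4 were higher in the treated library and 5 were lower, and the middle of their log2 ratios was -0.42 (interval from Poisson draws -0.48 to -0.36). This middle value is the ratio of *FBLN5*, and the next gene above it, *FBN2*, stood at 0.38. The interval covers counting error and not the spread of the 9 ratios, which ran from -2.23 to 1.21. The 7658 genes of the whole table whose 2 libraries averaged 10 CPM or more had a median of 0.0082. Of the 9 genes, 8 reached this level, and 2 of them, *SVEP1* and *EFEMP1*, were more than 2-fold lower. Of all 7658 genes, 2.13% were more than 2-fold lower and 2.30% more than 2-fold higher. Both *SVEP1* and *EFEMP1* reached the minimum through the control library alone. *ELN*, the remaining gene, was more than 2-fold higher at a mean below 10 CPM. At a minimum mean of 1 CPM, which *ELN* passed, 3.45% of 12116 genes were more than 2-fold higher and 3.46% more than 2-fold lower.

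**Figure D1:**
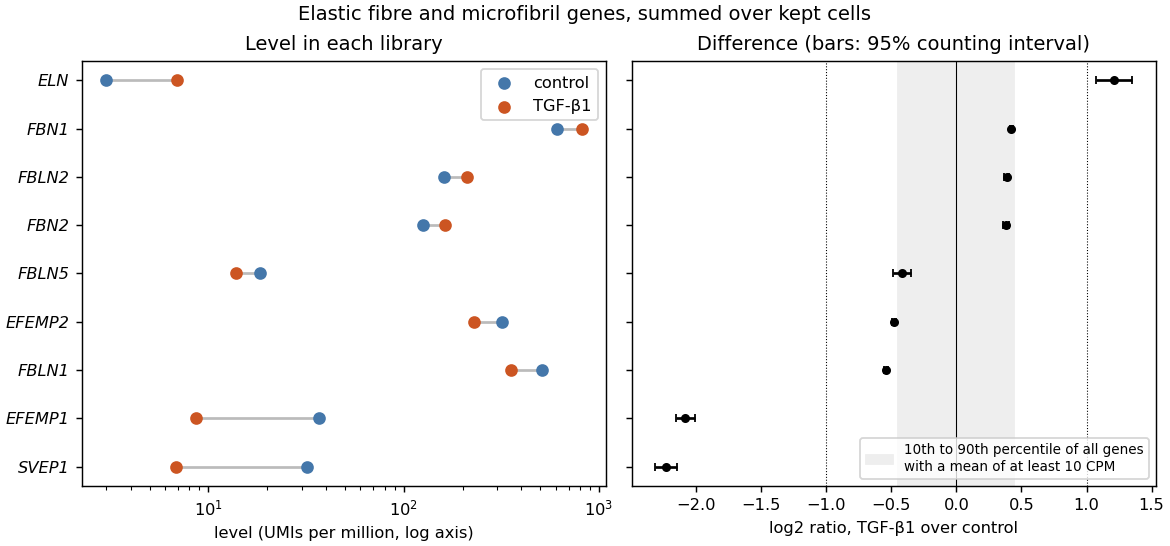
Left, the level of each gene in CPM on a log axis, with the control library in blue and the treated library in orange. Right, treated over control as a log2 ratio with its 95% counting interval, dotted lines at 2-fold and a grey band from the 10th to the 90th percentile of 7658 genes (-0.45 to 0.45). *ELN*, *SVEP1* and *EFEMP1* lie outside the 2-fold lines, and *FBN1* has the highest level in both libraries.

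Elastin itself was the scarcest of the 9 genes in the control cells. *ELN* (ENSECAG00000040154) had 629 UMIs, or 2.99 CPM, in the control library and 1520 UMIs, or 6.92 CPM, in the treated library. The level after TGF-β1 was 2.31-fold the control level (log2 ratio 1.21, 1.08 to 1.35). *FBN1* outnumbered *ELN* by 205 to 1 in control cells and by 119 to 1 in treated cells. To compare cells of unequal depth, each cell was thinned at random to 20000 UMIs. An *ELN* UMI then occurred in 5.64% of the control (exact binomial limits 4.93% and 6.41%) and 11.0% of the treated cells (10.1% and 12.0%). Most cells of both libraries thus had none, and the highest cell had 4 UMIs in the control and 11 in the treated library. Cells with 3 or more *ELN* UMIs made up 0.129% of control and 0.665% of treated cells. No cell type that should lack these genes was present, so the share that free RNA gives was not measured.

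The fibrillins were abundant and both were higher after TGF-β1, by a similar factor. *FBN1* (ENSECAG00000018455), the principal structural protein of microfibrils, had 612 CPM in the control and 820 CPM in the treated library (log2 ratio 0.42, 0.41 to 0.43). It was the most abundant of the 9 genes in both libraries, at rank 206 of all genes in control and rank 172 in treated cells. *FBN2* (ENSECAG00000012011), a fibrillin best known from developing tissue, had 125 CPM in the control and 163 CPM in the treated library (log2 ratio 0.38, 0.36 to 0.40). The level of *FBN1* was 4.88 times that of *FBN2* in control cells and 5.02 times in treated cells. Nearly every thinned cell held *FBN1*, 99.9% in both libraries, and its median was 11 UMIs per cell in the control and 15 in the treated library. *FBN2* was found in 76.8% of control and 86.9% of treated cells. For *FBN1* the whole distribution was higher, from 5 to 7 UMIs at the 10th percentile of cells and from 20 to 26 at the 90th. Both ratios lay within the 10th to 90th percentile range of all genes.

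The long fibulins differed in direction in the treated library. *FBLN1* (ENSECAG00000018101), which binds fibronectin and lies in basement membranes and elastic fibres, had 513 CPM in the control and 353 CPM in the treated library (log2 ratio -0.54, -0.55 to -0.53). *FBLN2* (ENSECAG00000008859), which binds fibrillin and tropoelastin, had 161 CPM in the control and 211 CPM in the treated library (log2 ratio 0.39, 0.37 to 0.41). In control cells *FBN1* stood at 1.19 times the level of *FBLN1*, and in treated cells at 2.32 times. The thinned count of *FBLN1* in control cells had a variance of 5.50 times its mean. Counting error alone gives a ratio near 1, and the ratio grows with the level of a gene, so it does not rank genes of unequal level. Its cells ran from 3 UMIs at the 10th percentile to 22 at the 90th. In the treated library the same ratio was 3.22 and the 10th and 90th percentiles were 2 and 13 UMIs. In absolute UMIs the upper end thus differed more between the libraries than the lower end. A common factor over all cells also gives a wider gap at the upper end, so this does not single out cells with much *FBLN1*. For *FBLN2* the ratios were 1.38 and 1.35.

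All 3 short fibulins were lower in the treated library, to unequal degrees. *EFEMP2* (ENSECAG00000021047), or fibulin-4, which binds lysyl oxidase and tropoelastin and is needed for elastic fibre assembly, had 318 CPM in the control and 228 CPM in the treated library (log2 ratio -0.48, -0.50 to -0.46). *FBLN5* (ENSECAG00000012066), which binds tropoelastin and *LOXL1* protein, had 18.5 CPM in the control and 13.8 CPM in the treated library (log2 ratio -0.42, -0.49 to -0.35). *EFEMP1* (ENSECAG00000010447), or fibulin-3, a matrix protein mutated in an inherited macular dystrophy, had 36.8 CPM in the control and 8.68 CPM in the treated library. This was 4.24-fold lower (log2 ratio -2.08, -2.16 to -2.01) and rested on 7741 and 1908 UMIs. The intervals of *EFEMP2* and *FBLN5* overlapped, and that of *EFEMP1* was well apart from both.

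*SVEP1* (ENSECAG00000021653), a large secreted matrix protein that binds an integrin containing the *ITGA9* subunit, was lowest in relative terms. It had 6768 UMIs in the control and 1507 in the treated library, or 32.2 and 6.86 CPM. The level was 4.69-fold lower (log2 ratio -2.23, -2.31 to -2.15), and 0.157% of the 7658 genes had a lower ratio. Its interval overlapped that of *EFEMP1*. In control cells *ELN* had 0.0929 times the level of *SVEP1*, while in treated cells both stood at the same level within counting error.

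In both libraries the 5 most abundant genes kept the same order, from *FBN1* through *FBLN1*, *EFEMP2* and *FBLN2* to *FBN2*. In the control library these were followed by *EFEMP1*, *SVEP1*, *FBLN5* and *ELN*, and no neighbouring counting intervals overlapped. In the treated library they were followed by *FBLN5*, *EFEMP1*, *ELN* and *SVEP1*, and the intervals of *ELN* (6.57 to 7.27 CPM) and *SVEP1* (6.52 to 7.21 CPM) overlapped.

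For *EFEMP1* and *SVEP1* both the share of cells with a UMI and the UMIs per such cell were lower after TGF-β1. After thinning, *EFEMP1* was found in 45.5% of control cells (43.9% to 47.1%) and in 14.7% of treated cells (13.7% to 15.8%). Cells with a UMI held a mean of 1.56 *EFEMP1* UMIs in the control and 1.16 in the treated library. *SVEP1* was found in 40.8% of control (39.3% to 42.4%) and in 11.2% of treated cells (10.3% to 12.1%), with means of 1.62 and 1.12 UMIs in those cells. Cells with 3 or more *SVEP1* UMIs made up 5.87% of control and 0.111% of treated cells. At least 1 of the pair was found in 65.7% of the control and 23.9% of the treated cells. The share with both was 20.6% in the control, where the product of the single shares is 18.6%, and 1.99% in the treated library, where the product is 1.64%.

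The shares of cells with a UMI differed less for the remaining fibulins. *FBLN5* was found in 27.8% of control (26.4% to 29.3%) and 21.8% of treated cells (20.6% to 23.0%) after thinning, and *FBLN2* in 93.7% and 97.1%. *EFEMP2* was found in 98.9% and 97.7% and *FBLN1* in 99.1% and 98.6%, so for these abundant genes the difference lay in the UMIs per cell. The median cell had 6 *EFEMP2* UMIs in the control and 4 in the treated library, and 9 and 6 *FBLN1* UMIs.

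**Figure D2:**
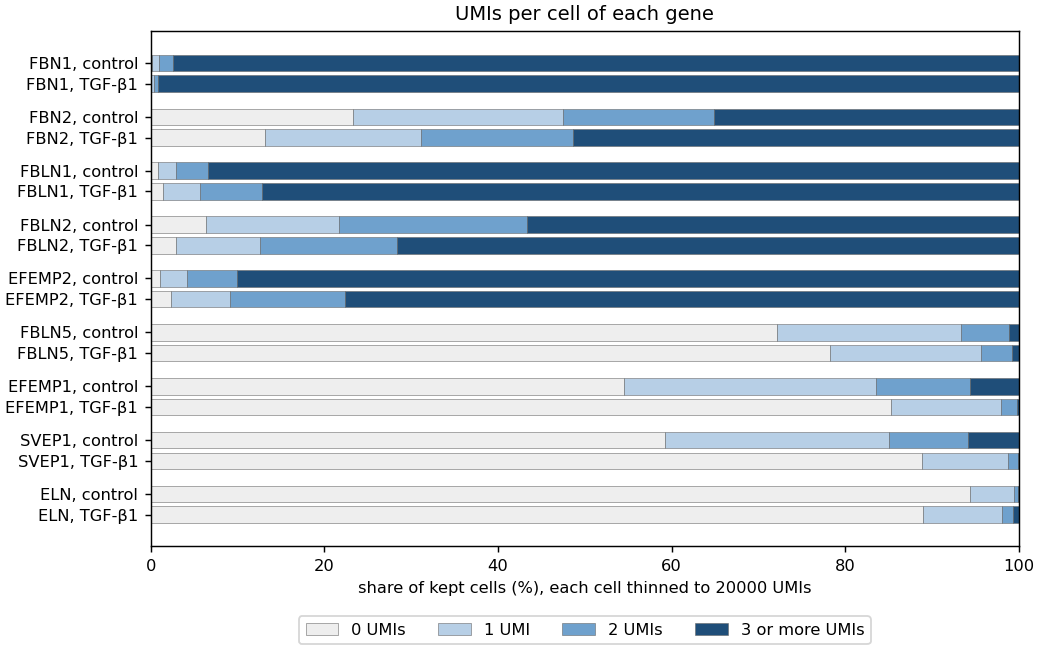
Share of kept cells with 0, 1, 2 or at least 3 UMIs of each gene after thinning every cell to 20000 UMIs, with the control library above the treated library for each gene. The share of cells without a UMI is 59.2% in control and 88.8% in treated cells for *SVEP1*, and 94.4% and 89.0% for *ELN*.

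The cells were clustered again with these genes and their related lists left out of the variable genes, so that the clusters did not use their counts directly. This gave 7 rebuilt clusters, which held 88 to 1160 cells of the control and 52 to 1230 of the treated library. Cluster 5 was cycling-like, with all 9 cycling markers found in the data over 2-fold above their level in the rest of the cells, and the other clusters were left unnamed. On summed counts, the sign of the ratio of each of the 9 genes was the same in all 7 clusters. The counting interval included 0 for *FBN2* in clusters 3, 4 and 6, for *FBLN5* in clusters 5 and 6 and for *FBLN1* in cluster 5. On thinned counts the mean per cell went the other way for *FBLN5* in cluster 5 (0.312 in the control, 0.373 in the treated library). The same held for *FBN2* in cluster 6 (1.53 and 1.5). The log2 ratio lay between -2.32 and -1.63 for *EFEMP1* and between -2.47 and -1.68 for *SVEP1*, so both were more than 2-fold lower in each cluster. *ELN* had log2 ratios from 0.90 to 1.72 and was more than 2-fold higher in 5 of 7. Of these 5, its counting interval lay wholly above 2-fold in clusters 1 and 4 only. It included 2-fold in clusters 0, 2 and 5, the last with 25 control and 77 treated UMIs. The *FBN1* ratio ranged from 0.26 to 0.56, that of *FBLN2* from 0.24 to 0.47 and that of *FBN2* from 0.07 to 0.46.

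*FBLN1* differed least between the libraries in the cycling-like cells. In the cycling-like cluster 5 it had 363 CPM in the control and 358 CPM in the treated library (log2 ratio -0.02, -0.09 to 0.05), and a difference was not detectable at this depth. In the other 6 clusters its log2 ratio lay between -0.79 and -0.48. The same cluster had the *FBLN5* ratio nearest 0 (-0.24, -0.56 to 0.09) and the highest ratio of *FBN1* (0.56, 0.51 to 0.61). Both intervals overlapped those of other clusters, so neither rank sets cluster 5 apart. Cells of cluster 5 made up 3.23% of control and 3.39% of treated cells, while the 9 cycling markers summed to 53.5 CPM in the control and 30.9 CPM in the treated library. When cells were instead taken by 3 or more cycling markers after thinning, *FBLN1* stood at 319 CPM in these and 518 CPM in the other control cells, and at 327 and 353 CPM in the treated library. Cells of cluster 5 were also the deepest, with medians of 70366 UMIs in the control and 56268 in the treated library. Over all cells *FBLN1* had r of -0.28 in the control and -0.10 in the treated library with the log of a cell's UMIs. The part of depth in the *FBLN1* values of cluster 5 was not tested.

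Control levels differed between clusters by 3.59-fold for *SVEP1*, from 13.0 CPM in cluster 4 to 46.6 CPM in cluster 2. Cluster 4, led by *MMP9*, *MMP1* and *CFD*, also had the highest level of *FBLN1* (821 CPM), *EFEMP2* (468 CPM) and *ELN* (4.58 CPM) and the lowest of *FBN1* (310 CPM) among control cells. Cluster 2 had the highest control levels of *FBN1* (747 CPM), *FBN2* (188 CPM), *FBLN2* (193 CPM) and *EFEMP1* (44.8 CPM). In the treated library *ELN* again was highest in cluster 4, at 15.0 CPM, against 3.73 CPM in cluster 3. *FBLN5* was the most even, with a highest level 1.37 times its lowest among the control clusters. Each of these cluster levels comes from a single pool of mares. The study reported a cluster made almost wholly of cells of a single mare. The mares in the rebuilt clusters were not determined, so differences between clusters cannot be told apart from differences between mares.

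**Figure D3:**
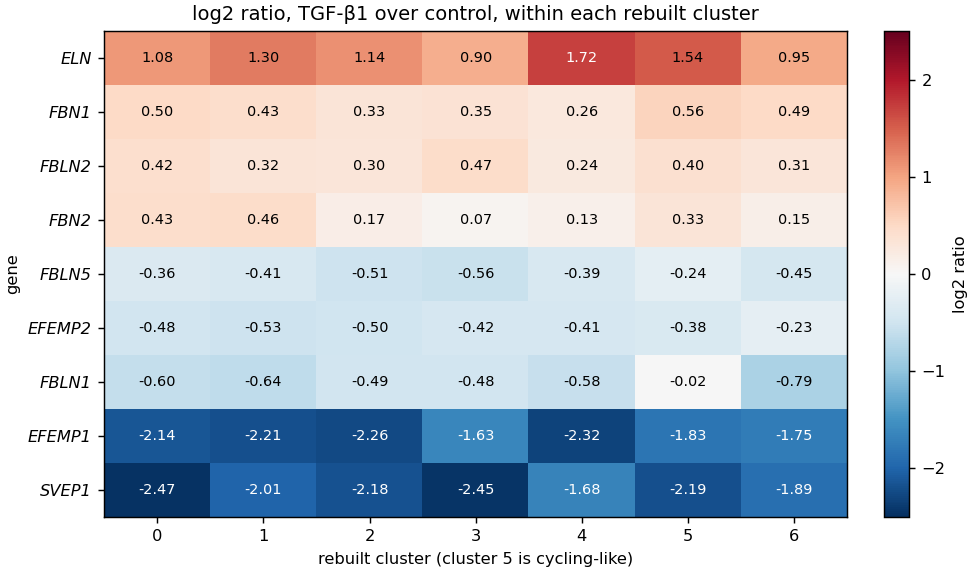
log2 ratio of TGF-β1 over control for each gene (rows) within each rebuilt cluster (columns), red for higher and blue for lower in the treated library. Rows keep their colour across the clusters, and the palest cell is *FBLN1* in the cycling-like cluster 5 (-0.02).

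From cell to cell, correlations between the 9 genes were weak. Over the thinned cells of each library, Pearson's r of log(1 + UMIs) was computed for all 36 pairs. The cells of a library share its preparation and its pool of mares, so these values are descriptions. The median r was 0.03 in the control library, with pairs from -0.13 to 0.16, and 0.01 in the treated library, with pairs from -0.16 to 0.17. No pair exceeded 0.2 in either direction. Counts of *ELN*, *FBLN5*, *EFEMP1* and *SVEP1* are mostly 0 or 1 per cell, which limits r for any pair with them, and values this small in sparse counts are given as a description.

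Among the more abundant genes, *FBN1* had r of 0.11 with *FBN2* in control and 0.15 in treated cells, 0.11 and 0.17 with *FBLN2*, and 0.15 and 0.08 with *SVEP1*. *FBLN1* and *EFEMP2* had r of 0.16 in control and 0.09 in treated cells. The sign was negative for *FBN1* with *EFEMP2* (-0.13 and -0.16) and with *FBLN1* (-0.09 and -0.07). Averaged within the rebuilt clusters, most of these values were nearer 0. *FBN1* then had 0.05 in both libraries with *FBN2*, 0.08 and 0.13 with *FBLN2*, 0.08 and 0.07 with *SVEP1*, -0.06 in both with *EFEMP2* and -0.03 and -0.0061 with *FBLN1*, while *FBLN1* with *EFEMP2* had 0.14 and 0.08. *FBN1* also went with the depth of a cell, with r of 0.20 and 0.25 against the log of its UMIs. *FBLN2* did so with 0.10 and 0.22, and *FBLN1* went against depth, with -0.28 and -0.10. The part of depth in these correlations was not tested.

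**Figure D4:**
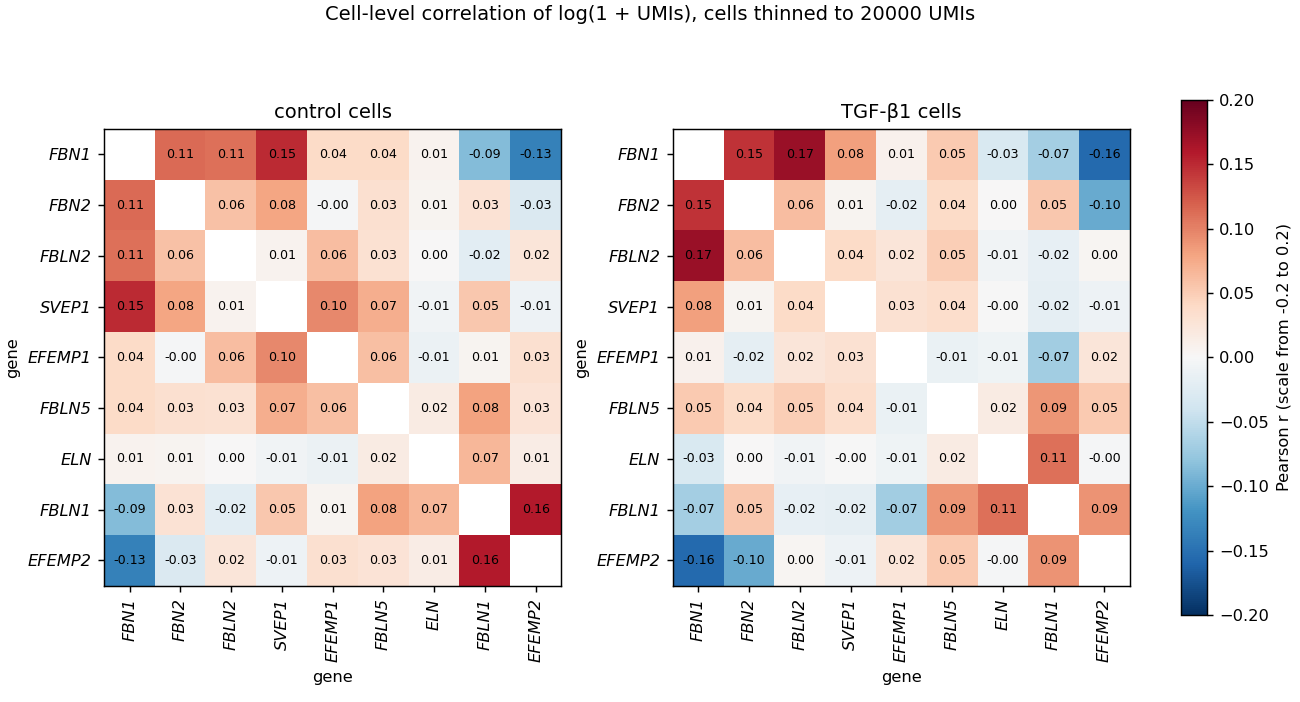
Pearson's r between the genes over 3865 control cells (left) and 4513 treated cells (right), each thinned to 20000 UMIs, on a colour scale from -0.2 to 0.2. All values lie between -0.16 and 0.17, with *FBN1* and *EFEMP2* the most negative pair in both libraries.

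Outside the set, the 3 genes with the highest r over cells were looked up for each of the abundant members. This was examined for the 5 genes with a mean of at least 1 UMI per thinned cell. *FBN1* followed *FNDC3B* (r of 0.43), *COL3A1* (0.40) and *DST* (0.38) in control cells and *FNDC3B* (0.49), *EXT1* (0.46) and *APBB2* (0.46) in treated cells. *FBN2* followed *PRUNE2* most closely in both (0.25 and 0.26), and in treated cells also the matricellular gene *TNC* (0.25). *FBLN2* followed *COL1A1* in both (0.19 and 0.24). *EFEMP2* followed *MYL9* (0.30 and 0.28) and *TPM2* (0.29 and 0.26), which encode parts of the contractile apparatus, and in control cells *PCOLCE* (0.29). *FBLN1* followed *LGALS1* (0.40), *LGALS3* (0.37) and *GSN* (0.37) in control cells, and *STRA6* (0.30), *RBP2* (0.29) and *DPT* (0.29) in treated cells. For *FBLN1* none of these 3 partners was shared by the libraries. Averaged within clusters, r was lower for each of these partners. For *FBN1* it was then 0.28 with *FNDC3B* in both libraries. It was 0.32 with *COL3A1* and 0.24 with *DST* in control cells, and 0.26 with *EXT1* and 0.27 with *APBB2* in treated cells. For *FBN2* with *TNC* it was 0.15 in treated cells. The part of depth in these values was not tested.

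The proteins that work with elastic fibres were represented by 51 further genes, of which 49 were found and 34 had a mean of at least 10 CPM. Of these 34, 21 were higher and 13 were lower in the treated library, 8 were more than 2-fold higher and 1 was more than 2-fold lower (2.30% and 2.13% of all genes at this level), with a median log2 ratio of 0.23. For 4 of the 8, *HMCN1*, *LOXL2*, *LOXL4* and *ITGA5*, the counting interval included 2-fold, and the count was 5 without the cells that had *KRT7* or *KRT8* and also 5 with cluster shares standardised over both libraries. The 15 genes of assembly and cross-linking held 6 of the 8. *MFAP4*, a microfibril-associated protein that binds elastin, went from 20.8 to 56.0 CPM (log2 ratio 1.43, 1.38 to 1.48). *LTBP1*, which anchors latent TGF-β in the matrix, went from 134 to 353 CPM (1.40, 1.38 to 1.42). The elastin and collagen cross-linker *LOX* had a log2 ratio of 1.38, and *HMCN1*, a giant relative of the fibulins, went from 45.6 to 93.1 CPM (1.03, 0.99 to 1.06). The other *LTBP* genes did not share this difference. *LTBP3* went from 24.1 to 14.7 CPM (-0.71, -0.78 to -0.65) and *LTBP4* from 18.7 to 11.9 CPM (-0.65, -0.73 to -0.58), while *LTBP2* was at 0.10.

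Beyond the rule for naming genes, some related genes were picked after their values were seen. *MFAP2*, the microfibril glycoprotein most like *MFAP5*, was abundant, with 490 CPM in the control and 589 CPM in the treated library (log2 ratio 0.26, 0.25 to 0.28). *LOXL1*, the lysyl oxidase that acts on elastin with *FBLN5*, was at 277 and 247 CPM (-0.17, -0.19 to -0.15). *LOXL2* and *LOXL4* were both at 1.01.

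Of the 5 ADAMTS and ADAMTSL genes at this level, which encode proteases and protease-like proteins found on microfibrils, 2 were higher and 3 were lower, none by more than 2-fold. The lowest was *ADAMTSL1*, from 98.4 to 61.0 CPM (-0.69, -0.72 to -0.66). The 4 elastin-cleaving enzymes at this level likewise held no 2-fold difference, with a range from -0.51 for *CTSS* to 0.65 for *CTSV*. The 10 receptor genes at this level had a median of 0.28 and the widest range. The integrin subunit *ITGB3* went from 6.31 to 16.6 CPM (1.39, 1.30 to 1.48) and reached the minimum through the treated library alone, and *ITGA5* had a ratio of 1.00. *ITGB8*, whose integrin activates latent TGF-β, went from 15.8 to 4.74 CPM (-1.73, -1.84 to -1.63) and reached it through the control alone, and *ITGA8* from 39.7 to 22.2 CPM (-0.84, -0.89 to -0.79). The genes of 2 proteins that bind *SVEP1* differed little, with *ITGA9* at -0.28 (-0.35 to -0.21) and *PEAR1* at 0.01 (-0.05 to 0.07), where no difference was detectable.

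**Figure D5:**
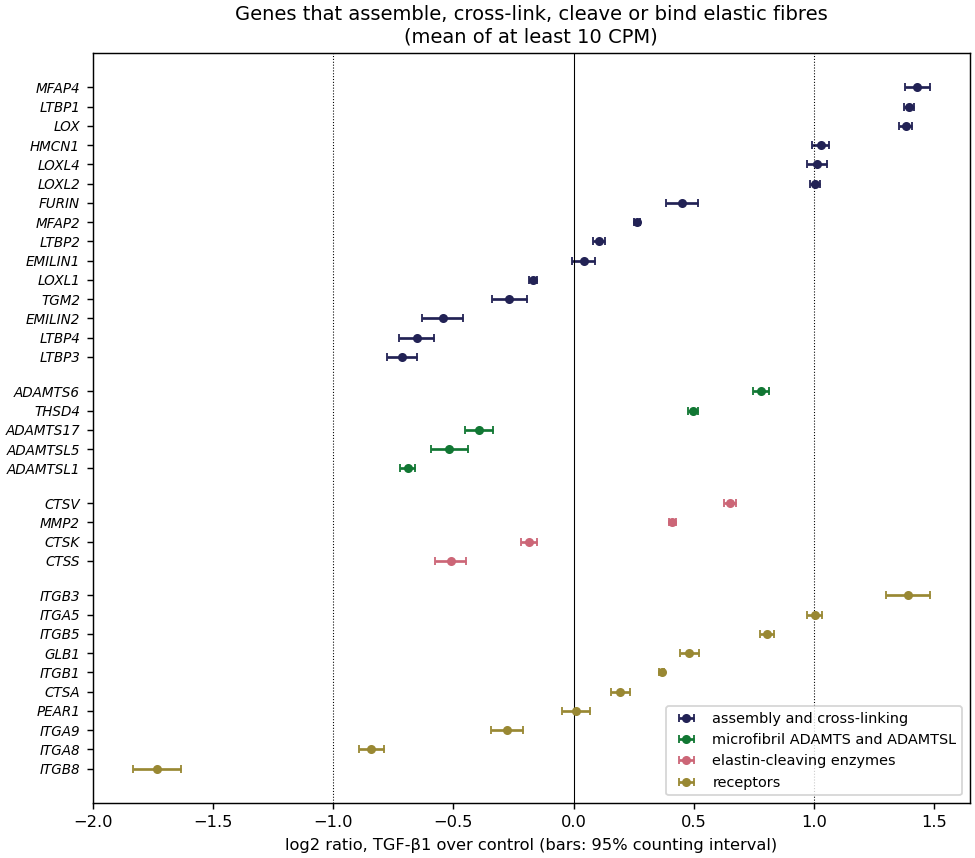
log2 ratio of TGF-β1 over control, with its 95% counting interval, of 34 genes that assemble, cross-link, cleave or bind elastic fibres and have a mean of at least 10 CPM, grouped by list, with dotted lines at 2-fold. *MFAP4*, *LTBP1*, *ITGB3* and *LOX* lie farthest to the right, and *ITGB8* is the gene beyond the line on the left.

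Since keratin transcripts differed strongly between the libraries, the ratios were also taken, as a choice made after seeing the data, without the cells that had a *KRT7* or *KRT8* UMI after thinning, which were 40.5% of control and 13.5% of treated cells. The remaining 2298 control and 3903 treated cells gave -2.24 for *SVEP1*, -2.05 for *EFEMP1*, 1.16 for *ELN* and 0.40 for *FBN1*, all with the direction found in the full libraries. The other 5 genes also kept their direction in these cells.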

How the data were processed

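The members and gene lists were chosen with earlier results of these data known. The authors deposited raw UMI counts per gene and cell barcode for the control and TGF-β1 libraries, made with Cell Ranger against EquCab3.0 and its Ensembl genes. The submitters' processing notes name version 7.1.0 and the file headers name 8.0.1. Counts near 3′ ends depend on where the annotation places those ends. Cells given MFGE8 were left out. Doublets and mares, which the study called from reads, were not called again.

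Counts of kept cells were summed per library (210497250 and 219731144 UMIs) and compared as log2 ratios without a pseudocount (Python 3.11.15, scipy 1.17.1). Intervals are exact binomial for ratios and shares, exact Poisson for levels, and from 1000 Poisson draws for the median, all at 95%. Clusters were rebuilt in Seurat 5.3.0 (R 4.3.3) at resolution 0.5, after integration by canonical correlation over 30 dimensions of 2000 variable genes, which left out members and related genes, and used where each library had at least 50 cells. Named genes were the members, the 5 largest ratios in each direction among related genes averaging 10 CPM or more, and, for each member with 1 UMI or more per thinned cell, the 3 genes with the highest r. *NEU1*, *ITGAV*, *KRT18* and *MKI67* were not found by symbol. The calculation of ratios was checked on simulated counts. No reference sequence or coordinates of the build were used. A promoter motif search that had been planned was not run for that reason.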

Additional observations from a re-analysis of the deposited data

How the results depend on the processing

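No paired analysis was possible because the files give 1 library per group and the mares of each pool are told apart from reads, which were not used here. The count of members more than 2-fold higher (1) or lower (2) and the direction of all 9 ratios were the same under every alternative run on the ratios: every deposited barcode, cells of 10000 UMIs or more, a limit of 6% on mitochondrial UMIs, removal of cells above the 98th percentile of UMIs, the mean of per-cell CPM, a size factor from the median of ratios, totals without mitochondrial genes, removal of cycling cells, standardised cluster shares and, added after the data were seen, removal of cells with *KRT7* or *KRT8*. A 1.5-fold limit also gave 1 and 2 members, with 6.19% of genes averaging 10 CPM or more higher and 6.48% lower, or 7.64% and 9.36% at 1 CPM, the level that *ELN* passed. The count of related genes more than 2-fold higher was between 5 and 8 under the same alternatives, added after the data were seen. The largest move of a ratio was 0.07, for *FBN2* with standardised cluster shares. At resolutions of 0.3 and 0.8, all genes kept their direction in every cluster except *FBN2* in 1 of 9 clusters (-0.04). Without integration only 1 cluster held 50 cells of each library, and *FBLN1* was at 0.10 in it. Depth limits *ELN*, *FBLN5*, *EFEMP1* and *SVEP1*: without thinning the share of cells with *SVEP1* was 65.7% in the control and 24.1% in the treated library, and with *ELN* 13.1% and 22.5%. Correlations on unthinned counts were higher, with medians of 0.06 and 0.05 and a highest pair of 0.22.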

Other observations

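Several genes of the related lists with a mean below 10 CPM were picked after their values were seen. *ADAMTSL2*, which encodes a microfibril protein that binds fibrillin and *LTBP1* protein, went from 93 UMIs in the control to 668 after TGF-β1 (log2 ratio 2.78, 2.47 to 3.11), farther from 0 than that of any elastic fibre gene described above. *PAPLN*, the papilin gene, went from 7.57 to 3.85 CPM (-0.98, -1.10 to -0.86), and *ADAMTS10*, a fibrillin-binding protease, from 6.91 to 3.90 CPM (-0.82, -0.95 to -0.70). The gelatinase *MMP9*, which cleaves elastin, went from 4.07 to 11.7 CPM (1.52, 1.40 to 1.63). The third fibrillin gene, *FBN3*, had 3 and 6 UMIs, and *MMP7*, an elastin-cleaving enzyme, had 0 UMIs in both libraries.

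Some genes that varied against a member from cell to cell were also looked at after the data were seen. In control cells *FBLN1* had r of -0.37 with *C1QTNF3* and of -0.35 with *CTHRC1*, and averaged within rebuilt clusters these were -0.32 and -0.30. *FBN1* ran against *UBB* (-0.34 and -0.35) and *S100A11* (-0.30 and -0.38) in the control and TGF-β1 libraries, and within clusters these were -0.23 and -0.19 for *UBB* and -0.16 and -0.23 for *S100A11*.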
